A study of Mus musculus with 24 samples.

Results

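The comparison described here is that of mouse retina at postnatal day 6 (P6) with retina at postnatal day 4 (P4). It uses the P4 and P6 columns of the gene count table, 2 libraries at each age, which are 4 of the 24 libraries of a series covering 12 ages from embryonic day 11 to postnatal day 28. All animals were of the C57/Bl6N strain, the tissue was whole retina frozen after dissection, and the labels name no treatment, transgene or mutation. The 2 libraries at P2 served as the preceding age in 1 further test. The libraries were made from PolyA RNA with a directional protocol. Those of embryonic days 11 and 12 were made from less RNA than those of all later ages, and the part of this difference was not tested. The labels do not say how many animals a library holds or whether the 2 libraries of an age came from different animals, and the p-values therefore measure only how far these libraries differ. Because the tissue is a mixture of cells, a lower level of a gene can come from fewer cells of a type or from less of its RNA per cell, and these cannot be told apart.

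In the first postnatal week of the mouse, the last retinal progenitors divide and leave the cell cycle, and the late-born cells, rods, bipolar cells and Müller glia, differentiate. Rods then build a light-sensing outer segment from a modified cilium and fill it with the proteins of phototransduction, the cascade in which light acts through transducin and a phosphodiesterase to close cyclic-nucleotide-gated channels. Bipolar cells carry the signal of photoreceptors to the inner retina, and those of the ON type sense glutamate through the receptor mGluR6, encoded by Grm6.

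The P4 libraries held 28567671 and 30332390 estimated counts and the P6 libraries 30570732 and 31349010. Levels are given below as CPM, the counts scaled to the size of each library with TMM factors, which are not corrected for gene length, and values are compared between ages and not between genes. Among 8636 genes that averaged 20 CPM or more at P4 or P6, the SD of log2 CPM between replicates was 0.179 at P4 and 0.157 at P6. Xist, the RNA of the inactive X chromosome, stood at 4.11 and 5454 CPM in P4 replicates 1 and 2 and at 12.7 and 4925 CPM in P6 replicates 1 and 2, and the Y-linked gene Ddx3y at 136 and 0.225 at P4 and 119 and 0.585 at P6. Each age therefore had 1 library with Y-linked RNA and 1 with Xist, and both carried the same replicate number at the 2 ages. With these values the 2 libraries of an age cannot be repeats of 1 RNA sample. Mitochondrial genes took 6.14% and 6.11% of counts at P4 and 6.09% and 5.80% at P6, against 2.86% and 2.99% at P2.

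Between P4 and P6, 25 of 26 genes of mitosis and 21 of 27 of DNA replication and the G1/S transition were called lower. Called higher were 16 of 21 genes of rod phototransduction, 9 of 19 of the outer segment and cilium and 10 of 24 of bipolar cells. The rule for a call is given below. The most extreme rise among called genes above 20 CPM was that of Grm6, from 0.170 and 0.0963 CPM to 89.9 and 50.1 CPM, and the most extreme fall that of Uhrf1, a replication-linked chromatin factor, from 55.4 and 47.7 to 6.90 and 9.58 CPM. Of 21858 genes tested, 571 (2.61%) were called, that is, they had a Benjamini-Hochberg adjusted p under 0.05 in edgeR's quasi-likelihood test and a change of at least 2-fold. Of these, 235 (1.08%) were higher at P6 and 336 (1.54%) lower. The adjusted p alone was passed by 1800 genes, 779 higher and 1021 lower, and the median log2 change of all genes tested was 0. The P4 and P6 libraries did not overlap in 570 of the 571 called genes and in 11886 of the 21858 tested. Without P4 replicate 1, 144 genes were called higher and 275 lower.

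The called genes were placed in the course of development by the age of their highest mean, which is a description without a test. Of the 235 higher genes, 97 (41.3%) were highest at P21, 48 (20.4%) at P28, 37 (15.7%) at P14, 33 (14%) at P10 and 2 (0.851%) at P6 itself. Of the 336 lower genes, 138 (41.1%) were highest at E11, 62 (18.5%) at P0, 55 (16.4%) at E12 and 8 (2.38%) at P4. Among all genes tested, 19.9% peaked at E11, 8.71% at E12, 5.19% at P0 and 5.33% at P4. The shares were 3.3% at P6, 5.36% at P10, 9.54% at P14, 12.4% at P21 and 12.8% at P28. By the way they were called, higher genes cannot peak at P4 nor lower genes at P6.

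**Figure D1:**
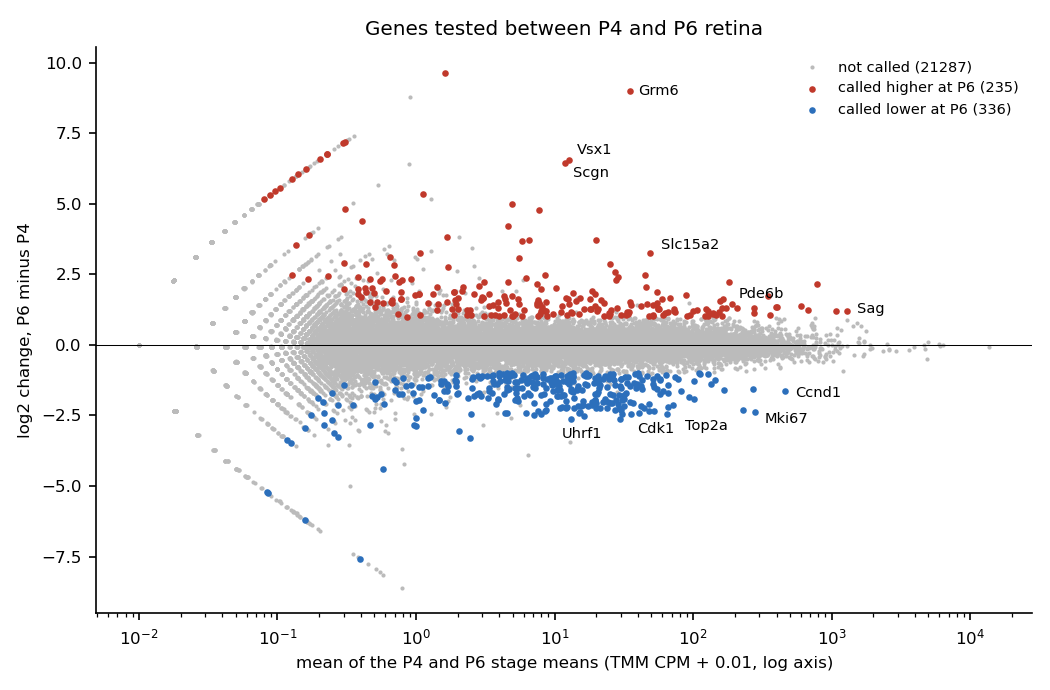
Each point is 1 of 21858 genes, with the mean of the P4 and P6 stage means (TMM CPM plus 0.01, log axis) on the x axis and the log2 change from P4 to P6 on the y axis. The 235 genes called higher are red and the 336 called lower are blue, rays of points at the left are genes with few or no counts at 1 age, and Grm6, Vsx1 and Scgn stand far above the other genes of their level.

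Genes of mitosis fell. Of 26 genes tested, 25 were called lower and none higher, with a median log2 change of -2.15 against 0 for all genes. Mki67, the antigen used to mark cycling cells, had 482 and 452 CPM at P4 and 77.2 and 100.3 CPM at P6. It fell by 2.39 on the log2 scale (SE 0.19, edgeR adjusted p = 2.47e-07), and both P6 libraries lay far below both P4 libraries. Cdk1, the kinase that drives entry into mitosis, had 62.6 and 58.3 CPM at P4 and 10.8 and 11.3 CPM at P6, a log2 change of -2.45 ± 0.13 (SE, edgeR adjusted p = 6.71e-09). Top2a, the topoisomerase that untangles chromosomes, had 386 and 375 CPM at P4 and 68.6 and 86.4 CPM at P6 (log2 change -2.29 ± 0.18, edgeR adjusted p = 1.94e-07). The other called members ranged from -1.34 for Aurka, a spindle pole kinase, to -2.33 for cyclin B1 (Ccnb1) on the log2 scale. The only member not called was Bub1b, a spindle checkpoint gene, with 79.3 and 64.3 CPM at P4 and 49.5 and 39.2 CPM at P6 (log2 change -0.69 ± 0.26, edgeR adjusted p = 0.129). When the transcript estimates were summed in place of the gene table, Bub1b was called as well and all 26 were lower.

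Genes of DNA replication and the G1/S transition fell as well. Of 27 tested, 21 were called lower and none higher, the median log2 change was -1.36, and 26 passed the adjusted p alone. Uhrf1, named above, had the largest called change of the list (-2.64 ± 0.21, edgeR adjusted p = 2.97e-07). Cdc6, which loads the replicative helicase, averaged 12.09 CPM at P4 and had 2.07 and 2.25 CPM at P6 (log2 change -2.48 ± 0.16, edgeR adjusted p = 3.67e-08). Its neighbours in that step, the helicase subunits Mcm2 to Mcm6, fell by 1.20 (Mcm4) to 1.91 (Mcm3) on the log2 scale, whereas Mcm7 stood at 155 and 149 CPM at P4 and 88.4 and 87.7 CPM at P6, a change of -0.79 that passed the adjusted p (5.7e-05, edgeR) but not the 2-fold threshold. E2f8, a repressor of the E2F family, fell from 19.8 and 20.9 to 5.21 and 3.57 CPM (log2 change -2.21 ± 0.27, edgeR adjusted p = 3.18e-05). Thymidylate synthase, Tyms, had 55.7 and 59.1 CPM at P4 and 18.9 and 20.5 CPM at P6 and a log2 change of -1.54, and -0.86 when the transcript estimates were summed in place of the gene table, which is under 2-fold. Orc1, an origin recognition subunit, was split between the P4 libraries, at 15.0 CPM in replicate 1 and 1.67 in replicate 2 against 1.40 and 1.39 at P6, and was not called (edgeR adjusted p = 0.137). Its log2 change was -2.58 with all libraries, -0.26 without P4 replicate 1 and -3.43 without P4 replicate 2, where it was called. Cdt1 (helicase loading), Rrm1 (deoxynucleotide synthesis) and E2f2 were called with all libraries (-1.25, -1.03 and -1.30) and not without P6 replicate 1 (-1.05, -0.97 and -1.05), nor was E2f2 without P4 replicate 2 (-1.04).

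In absolute CPM the genes that lost most among those called were Ccnd1, Mki67, Top2a, Mid1 and Hmgb2. Ccnd1, the D-type cyclin of retinal progenitors, had 671 and 719.7 CPM at P4 and 199.8 and 251 CPM at P6, which is a change of -1.62 ± 0.21 on the log2 scale (edgeR adjusted p = 6.26e-05). Hmgb2, a chromatin protein of dividing cells and the only 1 of 15 chromatin and lamina genes called, had 252 and 250.4 CPM at P4 and 76.0 and 89.7 CPM at P6 (log2 change -1.60 ± 0.12). At a background of 2.61%, 1 call says little of a list this short. Mid1, an X-linked ubiquitin ligase, rests on 1 library: it stood at 169.6 in P4 replicate 1 and 633 in P4 replicate 2, against 109 and 162 at P6. Its log2 change was -1.57 with all libraries, -0.32 without P4 replicate 2 and -1.30 without P6 replicate 1, and it was not called in either of these. The 10 largest falls among called genes above 20 CPM with a gene name were, besides Uhrf1, Cdk1 and Mki67, the genes Ndc80 (kinetochore), Sgol1 (protector of sister chromatid cohesion), Kif4 (chromosome-bound kinesin), Arhgap11a, Esco2 (cohesin acetyltransferase), Pbk (a mitotic kinase) and Stil (centriole duplication). Their log2 changes lay between -2.61 for Ndc80 and -2.39 for Stil.

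None of the 7 inhibitors of cyclin-dependent kinases tested was called higher, which at a background of 1.08% says little of a list this short. The lowest log2 change of the list, -1.55, was that of a member not called. The 1 called was Cdkn2c (p18), and it fell from 19.03 and 19.5 to 7.09 and 8.84 CPM (log2 change -1.27 ± 0.13, edgeR adjusted p = 5.33e-06). Cdkn1b (p27) stood at 178 and 184 CPM at P4 and 123 and 140.5 CPM at P6, a log2 change of -0.46 that passed the adjusted p (0.0236, edgeR) and not the fold threshold.

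The promoters of the division genes were searched for the letters CCAAT, the core of the binding site of NF-Y, and TTTGAA, the most common form of the cell cycle genes homology region (CHR), which are textbook elements of mitotic promoters. Windows ran from 250 bases before to 50 after each RefSeq start (GRCm38.p6) and both strands were searched. Of 24 windows of 22 mitosis genes, 19 (79.2%) held TTTGAA, 22 (91.7%) held CCAAT and 19 (79.2%) held both. Over all 17130 windows of 13512 tested genes the shares were 12.8%, 37.0% and 5.17%, and over the 262 windows of genes called lower 35.1%, 58.4% and 26.7%. In the 23 windows of replication and G1/S genes, 3 held TTTGAA and 17 held CCAAT. A match is a description of the letters and not evidence of a bound site. The 120 bases before the start of 3 mitosis genes that fell, Cdk1, Cdc20 (activator of the anaphase-promoting complex) and Ube2c (its ubiquitin-conjugating enzyme), are shown because each holds both motifs close to the start, with CCAAT and TTTGAA on either strand in capitals (ATTGG and TTCAAA are their reverse complements), 5′ to 3′ on the gene's strand.
Cdk1 (chr10:69352913-69353032, minus strand): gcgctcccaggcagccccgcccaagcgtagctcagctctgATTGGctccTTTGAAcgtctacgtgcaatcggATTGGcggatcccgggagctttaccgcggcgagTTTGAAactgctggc
Cdc20 (chr4:118437344-118437463, minus strand): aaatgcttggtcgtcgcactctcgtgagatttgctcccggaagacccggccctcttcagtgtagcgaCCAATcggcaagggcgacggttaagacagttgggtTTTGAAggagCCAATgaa
Ube2c (chr2:164769809-164769928, plus strand): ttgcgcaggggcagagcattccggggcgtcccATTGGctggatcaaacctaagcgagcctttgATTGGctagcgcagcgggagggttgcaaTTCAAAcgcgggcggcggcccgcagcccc
In Cdk1 the TTTGAA matches began 71 and 15 bases before the start and the CCAAT matches 80 and 48 bases before it. In Cdc20 the single TTTGAA match lay 18 bases before the start, and in Ube2c it lay on the opposite strand at 29 bases. Cdc20 had 40.1 and 38.6 CPM at P4 and 7.15 and 9.52 CPM at P6, a log2 change of -2.24. Ube2c had 24.2 and 26.1 CPM at P4 and 5.05 and 6.22 CPM at P6, a log2 change of -2.16.

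Of 22 progenitor and Notch pathway genes, 2 were called lower, 1 higher, and the median log2 change was -0.37. Over all genes tested, 1.54% were called lower and 1.08% higher, so these counts say little of a list this short. Fgf15, a growth factor secreted by progenitors, had 14.24 and 14.8 CPM at P4 and 4.58 and 6.56 CPM at P6 (log2 change -1.38 ± 0.27, edgeR adjusted p = 0.00283). Sox2, a transcription factor of neural progenitors, had 51.1 and 50.1 CPM at P4 and 23.8 and 26.0 CPM at P6 (log2 change -1.02 ± 0.12, edgeR adjusted p = 2.09e-05). Neither was called without P6 replicate 1, where their log2 changes were -1.14 and -0.95. Pax6, which amacrine and ganglion cells keep, had 589 and 547 CPM at P4 and 415 and 434 CPM at P6 and was not called (edgeR adjusted p = 0.128). The Notch effector Hes5 stood at 6.83 and 14.5 CPM at P4 and 7.44 and 11.4 CPM at P6, with overlapping libraries.

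Of 16 genes of neurogenesis, 3 were called lower and none higher, against 1.54% and 1.08% of all genes tested. Sox11, a factor of newborn neurons, had 109 and 107 CPM at P4 and 43.4 and 50.9 CPM at P6 (log2 change -1.19 ± 0.10, edgeR adjusted p = 5.65e-07). The Notch ligand gene Dll3 had 17.3 and 16.9 CPM at P4 and 9.54 and 6.87 CPM at P6 (log2 change -1.06). Dll3 was not called without P4 replicate 1 (-1.04), P4 replicate 2 (-1.07) or P6 replicate 2 (-0.84). Neurod1, which differentiating photoreceptors express, was at 566 and 606 CPM at P4 and 604 and 615 CPM at P6.

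Rod phototransduction genes rose together. All 21 tested had higher means at P6 and passed the adjusted p alone, 16 were called, none fell, and the median log2 change was 1.36. Slc24a1, the sodium, calcium and potassium exchanger of the rod outer segment, had 2.41 and 2.79 CPM at P4 and 15.0 and 14.08 CPM at P6 and the steepest rise of the list (2.48 ± 0.11, edgeR adjusted p = 1.01e-09). The libraries of the 2 ages lay far apart compared with the replicates.

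Within the cascade, Gnat1, the rod transducin alpha subunit, had 10.6 and 13.0 CPM at P4 and 32.8 and 33.8 CPM at P6 (log2 change 1.496 ± 0.27). The phosphodiesterase subunits Pde6a, Pde6b and Pde6g rose by 2.05, 1.38 and 1.33 on the log2 scale, with 17.8 and 17.8 CPM at P4 and 76.7 and 71.0 CPM at P6 for Pde6a. Among the channel genes, Cnga1 had 149 and 169.5 CPM at P4 and 511 and 557 CPM at P6 (1.74 ± 0.14) and Cngb1 rose by 1.33 on the log2 scale. Recovery genes included Sag (arrestin) with 767 and 778 CPM at P4 and 1815 and 1776 CPM at P6 (1.22 ± 0.15), Grk1 (a receptor kinase, 1.61) and the guanylate cyclases Gucy2e (1.25) and Gucy2f (1.81). The 5 members short of 2-fold were Pdc (0.89), Gnb5 (0.95), Rgs9 (0.73), Gnb1 (0.68) and Guca1a (0.59), with edgeR adjusted p from 6.65e-05 (Gnb5) to 0.023 (Guca1a).

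The letters TAATCC, the core bound by the photoreceptor factor CRX and its relative OTX2, were searched in the same windows on both strands. They were present in 8 of 14 rod phototransduction windows (57.1%), in 26 of 177 windows of genes called higher (14.7%), in 9 of 262 of genes called lower (3.44%) and in 1053 of all 17130 windows (6.15%), and in none of the 24 mitosis windows. The 120 bases before the start of 3 rod genes that rose (Gngt1, the transducin gamma subunit, Sag and Gucy2f) are shown with TAATCC, or its reverse complement GGATTA, in capitals.
Gngt1 (chr6:3993888-3994007, plus strand): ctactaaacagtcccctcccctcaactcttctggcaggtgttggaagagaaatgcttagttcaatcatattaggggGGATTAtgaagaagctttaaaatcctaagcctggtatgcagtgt
Sag (chr1:87803560-87803679, plus strand): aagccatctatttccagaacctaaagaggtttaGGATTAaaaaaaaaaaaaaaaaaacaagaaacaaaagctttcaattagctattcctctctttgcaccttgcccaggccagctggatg
Gucy2f (chrX:142196937-142197056, minus strand): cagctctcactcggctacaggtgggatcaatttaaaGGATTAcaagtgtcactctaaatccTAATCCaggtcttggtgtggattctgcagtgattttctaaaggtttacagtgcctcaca
Gucy2f held 2 matches, at 84 and 59 bases before the start, and Gngt1 and Sag held 1 each, at 44 and 87 bases. Gngt1 had 91.4 and 94.9 CPM at P4 and 251 and 207 CPM at P6. The level of Gucy2f was 8.97 and 8.51 CPM at P4 and 31.5 and 29.7 CPM at P6.

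Of 15 regulators of photoreceptor fate, 1 was called, Ankrd33, a photoreceptor repressor, with 14.8 and 17.2 CPM at P4 and 34.6 and 33.4 CPM at P6 (log2 change 1.09 ± 0.19, edgeR adjusted p = 0.00126). Without P4 replicate 1 its log2 change was 0.98 and it was not called. The number of regulators called was 0 without P4 replicate 1, 3 without P4 replicate 2 and 2 without P6 replicate 2. At a background of 2.61% such counts say little of a list this short. Nrl, which directs rod fate, had 572 and 582 CPM at P4 and 918 and 921 CPM at P6 (0.67 ± 0.11, edgeR adjusted p = 0.000799) and its target Nr2e3 514 and 554 CPM at P4 and 915 and 917 CPM at P6 (0.78 ± 0.19, edgeR adjusted p = 0.0178), both short of 2-fold. Crx had 943 and 1001 CPM at P4 and 1407 and 1357 CPM at P6 (edgeR adjusted p = 0.114) and Otx2 1064 and 1087 CPM at P4 and 1043 and 1026 CPM at P6 (edgeR adjusted p = 0.938), neither passing the test. In all, 7 of the 15 passed the adjusted p alone, each with a higher P6 mean.

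Of 19 outer segment and cilium genes 9 were called, all higher, with a median log2 change of 0.96 and 16 past the adjusted p alone. Prph2, the rim protein peripherin, had 382 and 424 CPM at P4 and 949 and 939.9 CPM at P6 (1.23 ± 0.16, edgeR adjusted p = 8.3e-05), and Rp1, which stabilises the axoneme, 651 and 651 CPM at P4 and 1550 and 1460 CPM at P6 (1.21 ± 0.23, edgeR adjusted p = 0.00254). Sag, Rp1, Prph2 and Pde6b were among the 5 called genes with a gene name that gained the most CPM. The retinol dehydrogenase gene Rdh12 had 38.4 and 42.4 CPM at P4 and 138 and 136 CPM at P6 and the largest change of the list (1.76 ± 0.17, edgeR adjusted p = 2.04e-06), followed by Impg1, a component of the matrix around photoreceptors, at 1.66. Rpgr, a cilium gene mutated in retinitis pigmentosa, was at 105 and 99.9 CPM at P4 and 116 and 105 CPM at P6, with overlapping libraries. Without P4 replicate 1, 6 of the 9 were called. Abca4, Aipl1 and Fscn2 were not, with log2 changes of 0.92, 0.93 and 0.68 there against 1.13, 1.03 and 1.00 with all libraries. Fscn2 was not called without P6 replicate 1 or P6 replicate 2 either (1.10 and 0.92).

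Of 12 cone genes 3 were called, all higher, against 1.08% of all genes tested, and the median log2 change was 0.30. Arr3, cone arrestin, had 13.2 and 17.1 CPM at P4 and 35.5 and 36.5 CPM at P6 (1.25 ± 0.19, edgeR adjusted p = 0.000301). The middle-wave opsin Opn1mw was still near the floor, with 0.306 and 0.0642 CPM at P4 and 1.24 and 0.616 CPM at P6 (2.32 ± 0.53, edgeR adjusted p = 0.0154), and Kcne2, a potassium channel subunit, had 5.06 and 6.55 CPM at P4 and 11.16 and 12.5 CPM at P6 (1.02 ± 0.27). Opn1mw was not called without P4 replicate 2 (1.58) or P6 replicate 1 (1.748), and Kcne2 was not called without any 1 of the 4 libraries (0.85 to 1.22). Gnat2, the cone transducin alpha subunit, was at 47.9 and 48.3 CPM at P4 and 57.8 and 59.6 CPM at P6. Pde6c, the cone phosphodiesterase, was at 30.4 and 30.7 CPM at P4 and 56.6 and 55.6 CPM at P6. Of these Pde6c passed the adjusted p (0.000172, edgeR) and not the fold threshold. Gngt2, the cone transducin gamma subunit, had lower values at P6, 267 and 258 CPM at P4 and 190.3 and 189 CPM at P6 (edgeR adjusted p = 0.155). Opn1sw, the short-wave opsin, had 217 and 206 CPM at P4 and 177 and 199.5 CPM at P6 (log2 change -0.17, edgeR adjusted p = 0.671).

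At the photoreceptor ribbon synapse 4 of 17 genes were called higher and none lower, with a median log2 change of 0.50. The shares over all genes tested were 1.08% and 1.54%. Slc17a7, the vesicular glutamate transporter of photoreceptors and bipolar cells, had 74.8 and 85.5 CPM at P4 and 243 and 226 CPM at P6 (1.55 ± 0.13, edgeR adjusted p = 5.47e-07). Cplx4, a complexin of ribbon synapses, had 17.6 and 18.6 CPM at P4 and 54.3 and 49.3 CPM at P6 (1.52 ± 0.12), Cabp4, a regulator of the presynaptic calcium channel, 1.46 and 1.45 CPM at P4 and 4.39 and 4.81 CPM at P6 (1.66 ± 0.17, a level shared with a copy on a patch sequence that has the same values), and Lrit1, a transmembrane protein of photoreceptor synapses, 73.3 and 71.2 CPM at P4 and 180.2 and 169 CPM at P6 (1.27 ± 0.20). The scaffold gene Bsn was at 50.1 and 62.6 CPM at P4 and 63.4 and 56.7 CPM at P6 and its relative Pclo at 139 and 161 CPM at P4 and 187 and 161 CPM at P6. In both the libraries of the 2 ages overlapped. None of 16 vesicle release genes was called, which at a background of 2.61% says little of a list this short. Of the 16, 14 had higher P6 means, and the median log2 change was 0.32. Among them was Snap25, with 793 and 829.5 CPM at P4 and 1044 and 999 CPM at P6 (edgeR adjusted p = 0.228).

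Of the 10 largest rises among called genes above 20 CPM with a gene name, 6 were of bipolar cell genes. Of 24 such genes tested, 10 were called higher and none lower, and the median log2 change was 0.83. Grm6 (chr11:50850685-50866208 in the deposited table, for which the submitters' processing notes name GRCm38.p5) had 5 and 3 counts in the P4 libraries and 2828 and 1628 in the P6 libraries, a log2 change of 9.01 ± 0.35 (edgeR adjusted p = 1.45e-10), and it peaked at P10. The size of this fold rests on 8 counts at P4. Vsx1 (chr2:150680702-150689360), a homeobox gene of cone bipolar cells, had 10 and 6 counts at P4 and 945 and 651 at P6, which are 0.340 and 0.193 CPM at P4 and 30.0 and 20.1 CPM at P6 (6.54 ± 0.33, edgeR adjusted p = 2.95e-09). Scgn, the calcium sensor secretagogin of cone bipolar cells, had 0.340 and 0.193 CPM at P4 and 25.3 and 21.8 CPM at P6 (6.45 ± 0.43, edgeR adjusted p = 5.59e-08). Bhlhe23, a transcription factor of rod bipolar cells, had 0.238 and 0.353 CPM at P4 and 9.73 and 9.33 CPM at P6 (4.99 ± 0.31, edgeR adjusted p = 3.57e-08). The P4 libraries of these 4 genes were near 0 CPM, and every P6 library lay far above them.

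The other called bipolar genes were already measurable at P4. Gpr179, which anchors the mGluR6 complex at the dendrite tip, had 6.59 and 8.99 CPM at P4 and 58.7 and 35.5 CPM at P6 (2.59 ± 0.28) and Tmem215 6.39 and 5.68 CPM at P4 and 46.1 and 42.7 CPM at P6 (2.88 ± 0.19). Grik1, a kainate receptor of OFF bipolar cells, had 9.004 and 9.44 CPM at P4 and 53.0 and 44.0 CPM at P6 (2.39 ± 0.20). Genes of both the ON and the OFF pathway were thus among those called. Trpm1, the channel closed by mGluR6 signalling, had 9.24 and 2.76 CPM at P4 and 26.9 and 15.7 CPM at P6 (1.83 ± 0.43, edgeR adjusted p = 0.012). The 2 P4 libraries of Trpm1 lay apart, and it was not called without P4 replicate 2 (1.20) or P6 replicate 1 (1.40), nor was St18 (0.64 and 0.98 against 1.03). Members not called included Prkca, the protein kinase C of rod bipolar cells, with 67.4 and 67.7 CPM at P4 and 91.7 and 79.6 CPM at P6 (edgeR adjusted p = 0.332), Cabp5 with 11.0 and 12.3 CPM at P4 and 17.4 and 16.6 CPM at P6 (edgeR adjusted p = 0.091) and Irx5, the only member with a lower P6 mean, with 13.5 and 16.9 CPM at P4 and 7.28 and 8.20 CPM at P6 (edgeR adjusted p = 0.104).

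Of 22 transmitter receptor and chloride transporter genes 3 were called, all higher, and the median was 0.13. Over all genes tested, 1.08% were called higher. Gabrr1, a GABA receptor subunit, had 0.544 and 0.546 CPM at P4 and 17.6 and 12.3 CPM at P6 (4.77 ± 0.31, edgeR adjusted p = 6.41e-08). Gabrr2, another such subunit, had 0.476 and 0.193 CPM at P4 and 1.27 and 0.647 CPM at P6 (1.52 ± 0.43) and was not called without P4 replicate 2 (1.00) or P6 replicate 1 (0.97). Slc12a5, the chloride exporter KCC2, stood at 101 and 115 CPM at P4 and 181 and 172 CPM at P6 and did not pass the test (edgeR adjusted p = 0.101).

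The 10 largest rises among called genes above 20 CPM with a gene name included Grm6, Vsx1, Scgn, Tmem215, Gpr179 and Grik1 and, outside the lists, Slc15a2, Ryr3 and Trnp1. Trnp1, a nuclear protein, had 9.21 and 9.31 CPM at P4 and 50.9 and 41.1 CPM at P6 (2.31 ± 0.16). Ryr3, a calcium release channel, had 13.5 and 13.7 CPM at P4 and 91.4 and 60.5 CPM at P6 and a log2 change of 2.48, but 0.74 from the summed transcript estimates, where it was not called. Slc15a2, a peptide transporter, had 10.8 and 8.06 CPM at P4 and 93.7 and 84.1 CPM at P6 (3.24 ± 0.76, edgeR adjusted p = 0.0119). It was not called without P4 replicate 1, P4 replicate 2 or P6 replicate 1 (3.46, 3.05 and 3.17).

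**Figure D2:**
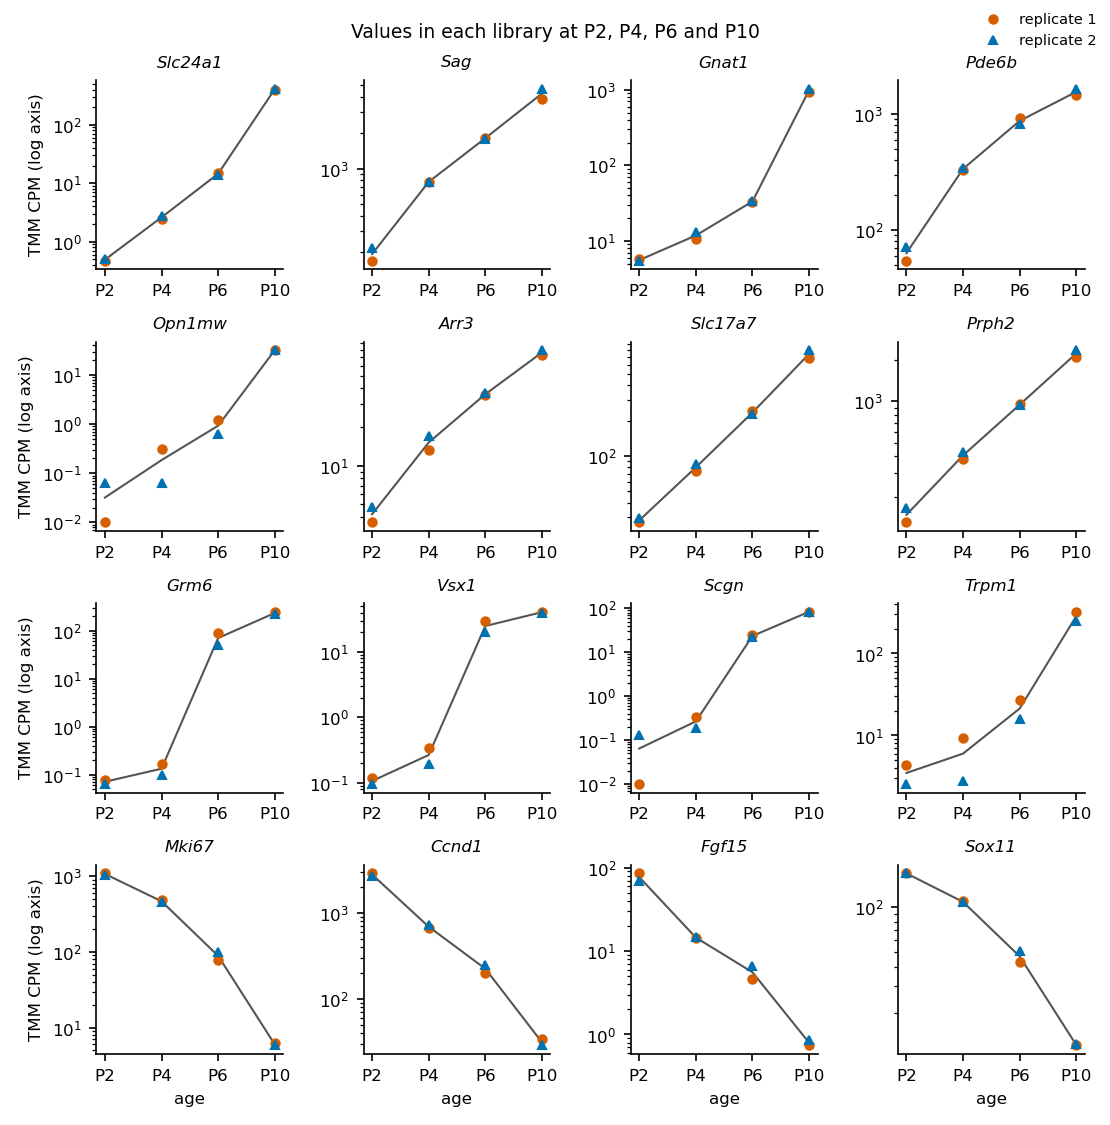
Levels of 16 genes at P2, P4, P6 and P10 (x axis) in TMM CPM (y axis, log scale, values below 0.01 drawn at 0.01), with a circle for replicate 1, a triangle for replicate 2 and a line through the stage means. The rod genes climb at every age, Grm6, Vsx1 and Scgn step up between P4 and P6, and Mki67, Ccnd1, Fgf15 and Sox11 fall throughout.

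None of 15 Müller glia genes, 6 horizontal cell genes or 15 ganglion cell genes was called, which at a background of 2.61% says little of lists this short. The median log2 changes were 0.22, 0.69 and -0.10. The Müller gene Glul (glutamine synthetase) had 303 and 288 CPM at P4 and 239.9 and 259 CPM at P6. Rlbp1, a retinoid-binding protein gene, had 249.3 and 230.3 CPM at P4 and 279 and 284 CPM at P6. Neither passed the test. The water channel gene Aqp4 was at 0.510 and 0.578 CPM at P4 and 1.81 and 0.893 CPM at P6 (edgeR adjusted p = 0.0879). Of the ganglion list, Isl1, which ON bipolar cells also express, had 47.7 and 50.9 CPM at P4 and 155 and 118 CPM at P6 and missed the threshold (log2 change 1.47 ± 0.46, edgeR adjusted p = 0.0609), and Pou4f2, a factor of ganglion cells, had 20.3 and 22.8 CPM at P4 and 15.6 and 18.1 CPM at P6. Lhx1 of horizontal cells had 4.25 and 3.21 CPM at P4 and 5.18 and 8.10 CPM at P6 (edgeR adjusted p = 0.443).

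Of 20 amacrine genes, 1 was called higher and 1 lower, against 1.08% and 1.54% of all genes tested. Such counts say little of a list this short. Slc5a7, the choline transporter of cholinergic amacrine cells, had 1.97 and 2.73 CPM at P4 and 6.74 and 6.47 CPM at P6 (1.49 ± 0.24, edgeR adjusted p = 0.00062), while Chat, which makes acetylcholine in the same cells, had 3.126 and 4.53 CPM at P4 and 4.26 and 4.59 CPM at P6 with overlapping libraries. Ptf1a, a factor of newborn amacrine and horizontal cells, had 1.02 and 2.34 CPM at P4 and 0.191 and 0.277 CPM at P6 (-2.83 ± 0.52, edgeR adjusted p = 0.00342), and it was not called without P6 replicate 1 (-2.58). Gad1, which makes GABA, was at 113 and 118 CPM at P4 and 122 and 124 CPM at P6.

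No gene of the glycolysis (20) or apoptosis (16) lists was called. Within glycolysis, Hk1, Aldoa, Aldoc and Eno2 passed the adjusted p alone with log2 changes of 0.66, 0.58, 0.90 and 0.64, and within apoptosis the BH3-only gene Bcl2l11 did, with 46.0 and 47.0 CPM at P4 and 31.4 and 29.7 CPM at P6 (-0.61 ± 0.14). Lists for cells outside the neural retina (endothelium, pericytes, astrocytes, microglia, pigment epithelium, lens, red cells, mesenchyme and muscle) had no member called either. In the 15 lists without a call, 35 of 173 genes had an unadjusted p under 0.05 in edgeR, against 4471 of all 21858 genes tested, which is close to the same share. DESeq2 called 3 of the 173, 1 each in the Müller glia, vesicle release and mesenchyme lists. Summed levels were 99.7 and 105 CPM at P4 and 86.8 and 96.4 CPM at P6 for 14 microglia genes, 84.2 and 72.8 CPM at P4 and 53.5 and 82.2 CPM at P6 for 12 pigment epithelium genes and 492 and 503 CPM at P4 and 499 and 472 CPM at P6 for 14 endothelium and VEGF genes. The 13 lens genes summed to 4.35 and 4.08 CPM at P4 and 5.69 and 23.1 CPM at P6, so that P6 replicate 2 stood above the other 3 libraries. The part of these cells in the results above was not tested.

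**Figure D3:**
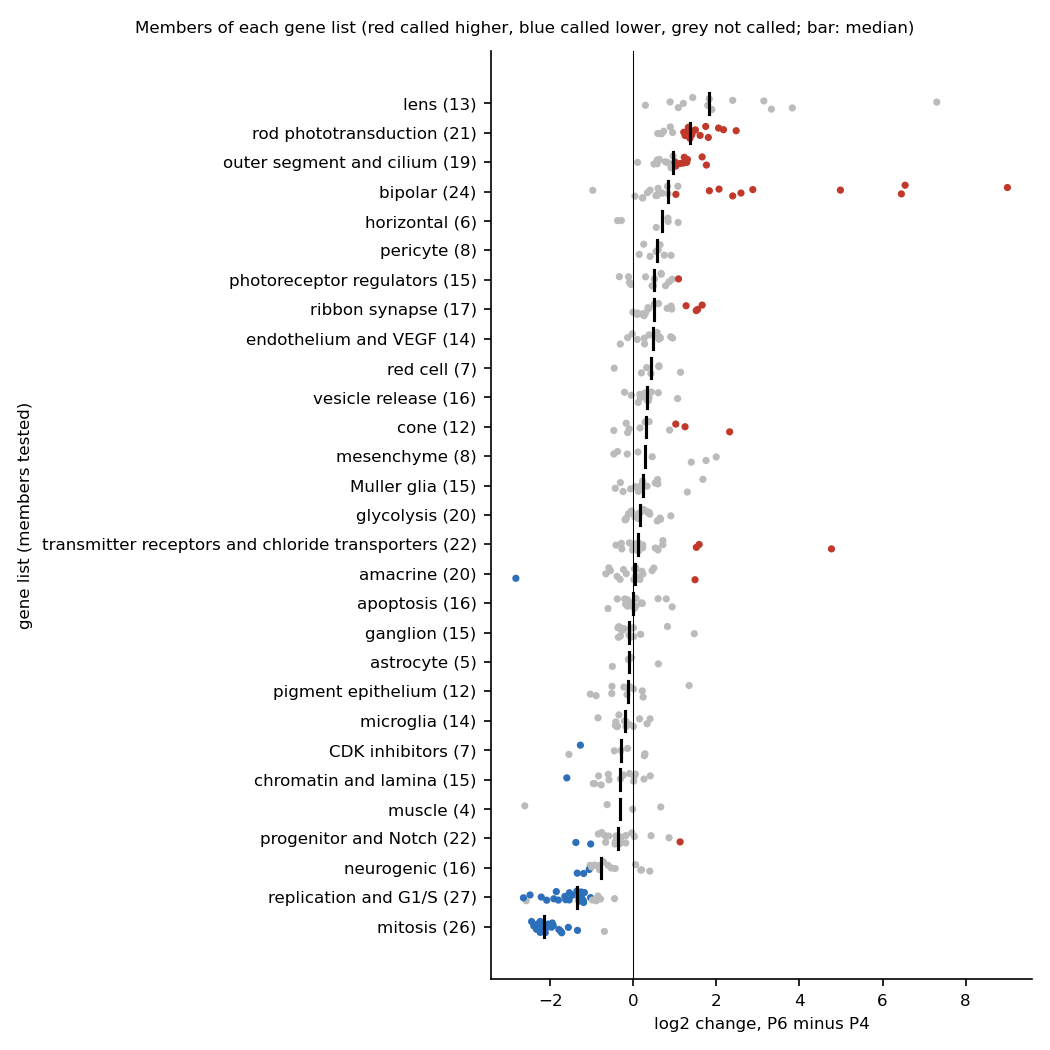
Log2 change from P4 to P6 (x axis) of each tested member of the 29 gene lists (y axis, number tested in brackets), red where called higher, blue where called lower and grey where not called, with a black bar at the median. Mitosis and replication genes lie at the lower end and rod, outer segment and bipolar genes near the upper end, and the topmost list, lens, has low counts and no member called.

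Whether a change between P4 and P6 differed from that of the 2 days before was tested as the log2 change from P4 to P6 minus the log2 change from P2 to P4. Of 21858 genes, 1649 (7.54%) were called, 1103 with a positive difference and 546 with a negative one, and 165 of them were also called between P4 and P6. This count rests on 1 library. Without P4 replicate 1 it was 212 (110 positive and 102 negative), whereas without any 1 of the other 5 libraries of these ages it lay between 1208 and 1490. The share of mitochondrial counts, 2.86% and 2.99% at P2, 6.14% and 6.11% at P4 and 6.09% and 5.80% at P6, moved between P2 and P4, and its part in these differences was not tested.

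For 16 of 26 mitosis genes the difference was called and negative, that is, they fell by a larger fold after P4 than before it. None was called positive, and the count of negative ones was 4 without P4 replicate 1 and 9 without P4 replicate 2. Cdk1 had 88.4 and 88.4 CPM at P2, 62.6 and 58.3 CPM at P4, and 10.8 and 11.3 CPM at P6, a difference of -1.90 ± 0.21 (SE, edgeR adjusted p = 0.000251). Kif11, a spindle motor, had 157 and 148 CPM at P2, 118 and 116 CPM at P4, and 23.8 and 30.0 CPM at P6 (-1.73 ± 0.24, edgeR adjusted p = 0.000682). In Ccnd1, by contrast, the difference was 0.40 ± 0.36 and did not pass (edgeR adjusted p = 0.529).

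Of 24 bipolar genes 6 had a called positive difference (4 without P4 replicate 1) and 1, Car8, a negative one (0 without P4 replicate 1). Grm6 had 0.0780 and 0.0641 CPM at P2, 0.170 and 0.0963 CPM at P4, and 89.9 and 50.1 CPM at P6 (8.13 ± 1.68, edgeR adjusted p = 0.00456), Vsx1 0.117 and 0.0961 CPM at P2, 0.340 and 0.193 CPM at P4, and 30.0 and 20.1 CPM at P6 (5.25 ± 1.02, edgeR adjusted p = 0.00314) and Tmem215 9.95 and 12.0 CPM at P2, 6.39 and 5.68 CPM at P4, and 46.1 and 42.7 CPM at P6 (3.74 ± 0.35, edgeR adjusted p = 5.86e-05). In Tmem215 the P4 libraries lay below those of both neighbouring ages. Of 21 rod phototransduction genes 6 had a called negative difference, that is, they rose by a smaller fold after P4 than before it. None was called positive, and the count of negative ones was 1 without P4 replicate 1 and 3 without P6 replicate 2 or P2 replicate 1. Pde6b is an example, with 54.0 and 71.7 CPM at P2, 331 and 341 CPM at P4, and 926 and 820.5 CPM at P6 (-1.04 ± 0.26, edgeR adjusted p = 0.0156).

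Among called genes above 20 CPM that had a gene name and P4 and P6 libraries without overlap, the 5 largest positive differences were those of Grm6, Slc15a2, Vsx1, Aacs and Rpl27-ps3. Aacs, a cytosolic enzyme of ketone body use, had 100.2 and 77.6 CPM at P2, 7.17 and 7.45 CPM at P4, and 21.5 and 21.23 CPM at P6 (5.15 ± 0.66, edgeR adjusted p = 0.000473), and 1.31 from summed transcript estimates. Slc15a2 was split at P2 between the libraries, with 141 and 12.17 CPM at P2, 10.8 and 8.06 CPM at P4, and 93.7 and 84.1 CPM at P6 (6.26 ± 1.42). Fras1, a basement membrane gene, had the inverse course, 16.11 and 15.7 CPM at P2, 37.7 and 62.7 CPM at P4, and 9.63 and 10.4 CPM at P6 (-3.98 ± 0.60), but a difference of -0.19 from the summed transcripts, where it was not called. The other 4 of the 5 largest negative differences, Vcp-rs, Pgk1-rs7, Rpl17-ps5 and Rpsa-ps2, and Rpl27-ps3 among the positive ones, are retrocopies or pseudogenes of expressed genes, so reads of the parent gene can be assigned to them and their values are uncertain.

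**Figure D4:**
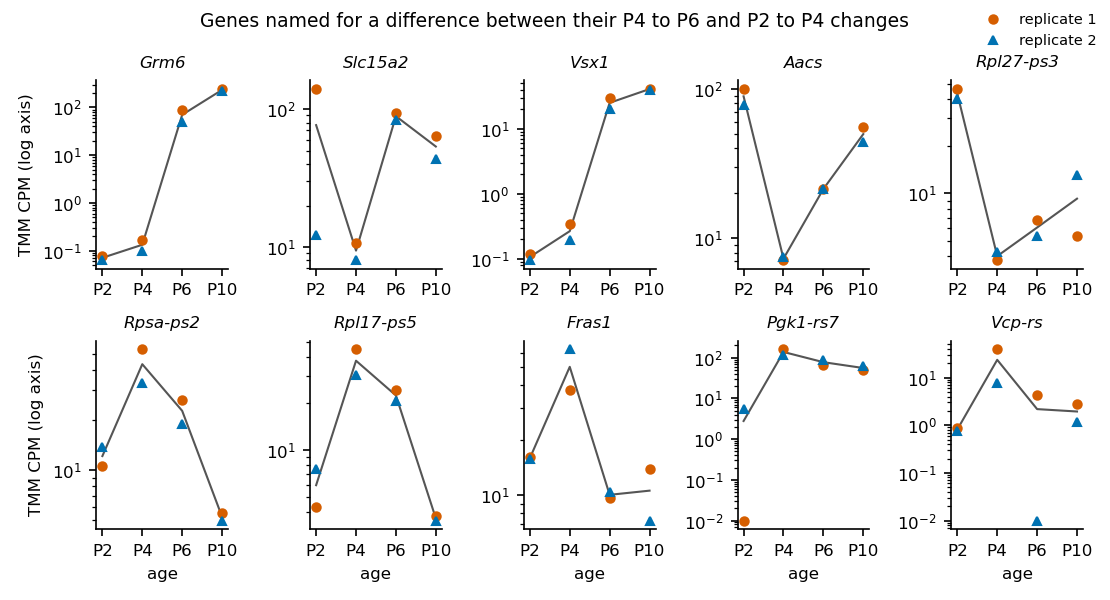
Levels of the 5 genes named for a positive (upper row) and the 5 named for a negative difference (lower row) at P2, P4, P6 and P10 (x axis) in TMM CPM (y axis, log scale, values below 0.01 drawn at 0.01), with circles for replicate 1, triangles for replicate 2 and lines through the means. Grm6 and Vsx1 step up at P6, the others in the upper row dip at P4, and those in the lower row have a P4 maximum among these 4 ages.

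Transcript usage was compared between P4 and P6 from the transcript estimates, as the share of a transcript among its gene's kept transcripts. Of 11431 genes with at least 2 kept transcripts, 111 (0.971%) were called, with a gene-level adjusted p under 0.05 (edgeR diffSpliceDGE) and a shift of at least 10 percentage points, and 11 of these were also called in the gene test. On simulated data the test passed more unchanged genes than the nominal rate. The count of 111 can therefore be too high, and the adjusted p given below for a single gene too small. With Simes' method, which was not run on the simulated data, 105 were called. The file holds no error for the assignment of reads to transcripts, which overlap widely.

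The largest shift was in Rbm12, an RNA-binding protein gene, whose total level hardly moved (71.5 and 71.4 CPM). The transcript Rbm12-002 took 52.5% and 39.3% of its reads at P4 and 95.1% and 78.3% at P6 (edgeR adjusted p = 0.0405). In Chd9, a chromatin remodeller, Chd9-202 went from 21.3% and 42.8% to 71.8% and 63.4% (edgeR adjusted p = 0.0282), and in Pex5, the peroxisomal import receptor, Pex5-002 from 0.181% and 0% to 20.9% and 33.0% (edgeR adjusted p = 0.000967). In these 3 genes the share moved the same way in both P6 libraries. In Pex5 a second transcript, Pex5-201, went the other way, from 17.3% and 24.7% to 0.158% and 0.205%. Pex5-002 and Pex5-201 are 3139 and 3148 bases long, and whether reads were assigned to the right one was not tested. Ahdc1-004 of Ahdc1 took 4.55% and 1.28% at P4 and 25.9% and 23.9% at P6 (edgeR adjusted p = 0.0124). Sema4d-001 of Sema4d, a semaphorin, was at 0% in both P4 libraries and at 43.6% and 7.82% at P6 (edgeR adjusted p = 0.0175), so the 2 P6 libraries lay far apart. Oraov1 also fell as a gene, from 76.8 to 27.1 CPM in the gene table, while its transcript Oraov1-007 went from 62.5% and 55.6% to 30.2% and 26.6% (edgeR adjusted p = 0.00194). In the transcript estimates Oraov1-007 had 29.5 and 26.8 CPM at P4 and 8.34 and 7.50 CPM at P6. Oraov1-001 hardly moved there, with 13.0 and 15.7 CPM at P4 and 13.5 and 15.2 CPM at P6. The level of the gene and these shares thus come from different estimates, and the size of its fall is uncertain. Each of the 6 calls was lost without at least 1 library, with the largest change of a share given here in percentage points. Rbm12 (40.8 with all libraries) was not called without P4 replicate 1 (47.4), P4 replicate 2 (34.2) or P6 replicate 1 (32.4), nor was Sema4d (27.6 with all) without the same 3 (28.9, 26.3 and 9.51). Chd9 (35.6) was not called without P4 replicate 1 (24.8), P6 replicate 1 (31.3) or P6 replicate 2 (39.8), and Ahdc1 (26.2) was not called without P4 replicate 2 (20.3), P6 replicate 1 (26.1) or P6 replicate 2 (26.2). Pex5 (26.8) was not called without P4 replicate 1 (26.9) or P4 replicate 2 (26.7), and Oraov1 (30.7) was not called without P6 replicate 2 (28.8).

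**Figure D5:**
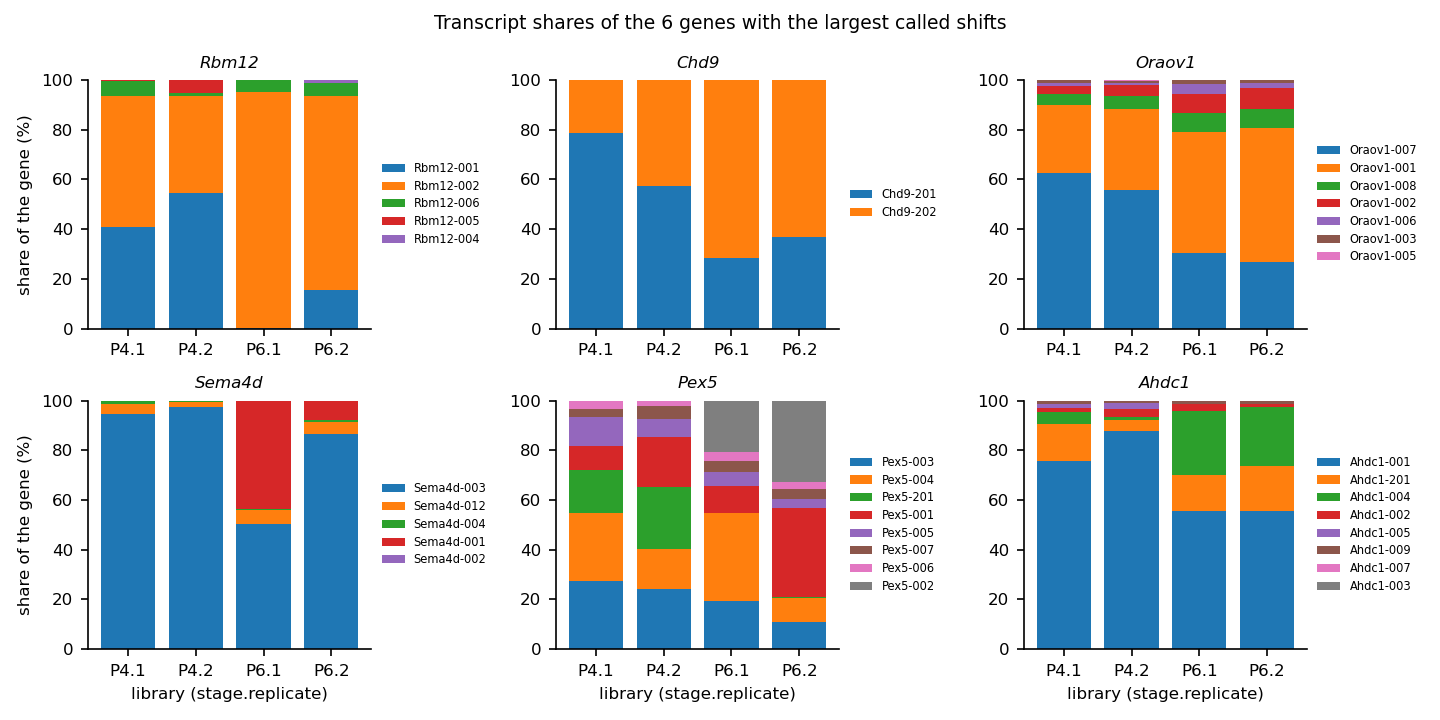
Share of each kept transcript (y axis, % of the gene's TMM-scaled transcript counts) in the 4 libraries (x axis, stage and replicate number) for the 6 called genes with the largest shift and at least 20 CPM, with 1 colour per transcript. The shift is alike in both P6 libraries for Chd9, Oraov1 and Ahdc1, and differs between them for Sema4d (43.6% and 7.82% of Sema4d-001).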

How the data were processed

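RNA-seq libraries of mouse retina at 12 ages, 2 per age, were analysed from the authors' deposited tables of estimated counts per Ensembl gene and per transcript. The submitters' processing notes name kallisto 0.42.4, edgeR 3.13.9 and GRCm38.p5 without their roles. Gene values are not exact sums of the transcript values, and both sets of expected counts were rounded to whole numbers. Genes were kept with filterByExpr (minimum count 10), scaled by TMM, and tested in R 4.3.3 with the quasi-likelihood test of edgeR 4.0.16, with all 24 libraries in 1 fit (12 residual degrees of freedom). Of 45594 genes, 21858 were tested. A gene was called at a Benjamini-Hochberg adjusted p under 0.05 and a change of at least 2-fold, and SE is that of the log2 change. Transcript usage was tested with diffSpliceDGE on 56426 kept transcripts. The scripts were tested on simulated data. Promoter windows came from RefSeq (GRCm38.p6), without chromosome 18.

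Named genes are the 10 largest called rises and falls above 20 CPM, the 3 largest called changes per list, 32 followed genes, the 5 largest gains and losses of CPM, the 5 largest differences of changes in each direction and the 6 largest usage shifts. Some genes that these rules name are not reported here. The rises, falls and differences were limited to genes whose P4 and P6 libraries did not overlap. Placeholder names (96 of 571 called genes) were passed over, and other genes named were chosen after their values were seen. The 29 lists (439 symbols, 436 tested, without Prcd, Tnnt3 and Myog) and the comparison itself were chosen with earlier results of these data known. The deposited normalized and differential expression tables were not used. Alternatives included DESeq2 1.42.0, other scalings and filters, a replicate block, leaving out each library and, chosen after seeing the data, summed transcript counts.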

Additional observations from a re-analysis of the deposited data

Results flagged for a closer look

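In 10 genes, chosen as the 5 largest positive and 5 largest negative called differences above 20 CPM among genes with a gene name and no overlap between the P4 and P6 libraries, the log2 change from P4 to P6 differed from that from P2 to P4 by a direct test of the difference in edgeR. The positive differences were 8.13 for Grm6, 6.26 for Slc15a2, 5.25 for Vsx1, 5.15 for Aacs and 4.03 for Rpl27-ps3. The negative ones were -2.76 for Rpsa-ps2, -3.39 for Rpl17-ps5, -3.98 for Fras1, -6.4 for Pgk1-rs7 and -8.29 for Vcp-rs. Both changes share the P4 libraries, so a single deviating P4 library enters both with opposite signs. Slc15a2 was not called without P4 replicate 1 (6.71) or P4 replicate 2 (5.87), and Rpl27-ps3 was not called without P4 replicate 1 (3.88). Rpsa-ps2 was not called without P4 replicate 1 (-2.003), P6 replicate 2 (-2.54) or P2 replicate 1 (-2.58). Vcp-rs was not called without P4 replicate 1 (-5.04), P2 replicate 1 (-8.36) or P2 replicate 2 (-8.21).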

How the results depend on the processing

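Of the 571 genes called between P4 and P6, 496 were also called by DESeq2 (564 in all), 556 with RLE size factors (559), 564 with library size alone (570) and 519 from summed transcript counts (626). Without the fold threshold 1800 were called (779 higher, 1021 lower), in a test against a 2-fold change 153 (40 and 113), and without a filter 361 were higher. Leaving out 1 library gave 407 to 562 calls, 144 to 248 higher and 247 to 314 lower. For the difference of changes, 3016 were called without the fold threshold (1377 negative), 45 against a 2-fold change (30 positive, 15 negative), and 212 to 1490 with 1 library left out (110 to 1060 positive, 102 to 521 negative). The cause of these shifts was not tested. Transcript usage gave 231 calls without the share threshold and 74 to 162 with 1 library left out. With 1 library left out, the log2 change of Chat ran from -0.0329 (without P4 replicate 1) to 0.50 (without P4 replicate 2) and that of Hes5 from -0.62 (without P4 replicate 1) to 0.47 (without P4 replicate 2), with 0.10 without P6 replicate 1. Neither was called in any of these. Equal replicate numbers are not stated to mark a shared litter or day. Replicate differences over 8636 genes correlated at 0.55 between P4 and P6 and -0.41 between P2 and P4. At P4 and P6 the replicate number also went with Xist and Y-linked RNA, and the part of sex was not tested. With the replicate block 574 genes were called between P4 and P6 (563 shared), 1655 in the difference and 95 in usage. The block is 1 coefficient for all 12 ages, so it cannot take up replicate differences that change sign between ages. With 2 libraries per age, 1 library can decide the call of a gene near the threshold, and genes of few counts have folds that depend on single reads.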

Other observations

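Apart from Thrb, a member of the list of photoreceptor regulators, the genes given here lie outside the lists. All were chosen after their values were seen, so they describe no group. Klf9, a transcription factor induced by thyroid hormone, had 23.0 and 24.02 CPM at P4 and 59.1 and 61.8 CPM at P6 (log2 change 1.36 ± 0.11, edgeR adjusted p = 2.79e-07), and Hr, a corepressor of its receptors, 6.39 and 9.22 CPM at P4 and 30.1 and 29.1 CPM at P6 (1.92 ± 0.18, edgeR adjusted p = 1.81e-06). Both genes had P6 libraries well above their P4 libraries. Slco1c1, a transporter of the hormone, had 0.850 and 0.739 CPM at P4 and 3.53 and 2.34 CPM at P6 (1.88 ± 0.37), and was not called without P6 replicate 1 (1.57). Dio2, the activating deiodinase, had 1.02 and 0.707 CPM at P4 and 2.70 and 2.28 CPM at P6 (1.53 ± 0.42), and was not called without any 1 of the 4 libraries (1.29 to 1.81). The receptor gene Thrb had 39.0 and 42.3 CPM at P4 and 54.7 and 56.6 CPM at P6 and did not pass the test (edgeR adjusted p = 0.258).

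Kcnv2, a potassium channel subunit of photoreceptors, had 76.5 and 77.2 CPM at P4 and 181 and 174 CPM at P6 (1.21 ± 0.15). Cacnb2, a calcium channel subunit of photoreceptor terminals, had 33.0 and 33.6 CPM at P4 and 87.7 and 74.0 CPM at P6 (1.28 ± 0.24). Lhx3, a homeobox gene, had 3.28 and 2.56 CPM at P2, 0.781 and 0.899 CPM at P4, and 12.14 and 9.55 CPM at P6, so that P4 lay below both neighbouring ages (P6 against P4 3.68 ± 0.27, edgeR adjusted p = 1.96e-07). Among falls, Gli3, a transcription factor of hedgehog signalling, had 76.3 and 73.5 CPM at P4 and 34.7 and 34.97 CPM at P6 (-1.10 ± 0.15), and Igf2bp1, an RNA-binding protein of embryonic tissue, 12.4 and 16.22 CPM at P4 and 5.56 and 6.41 CPM at P6 (-1.26 ± 0.24), which was not called without P6 replicate 1 (-1.15). Pyy, which encodes a peptide hormone, had 3.94 and 3.37 CPM at P4 and 0.413 and 0.462 CPM at P6 (-3.05 ± 0.46). DESeq2 gave it a log2 change of -3.04 but no adjusted p, and so it could not be called there.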
